A study of Mus musculus with 16 samples.

Results

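DNA methylation was followed at 4 pluripotency genes, Esrrb, Sox2, Klf4 and Fgf4, while mouse fibroblasts were reprogrammed with small molecules. Each gene was taken as a window of the mouse genome (build GRCm39) that holds the gene and its flanks, of 167 kb for Esrrb, 9 kb for Sox2, 11 kb for Klf4 and 11 kb for Fgf4. The listed CpG sites in these windows span chr12:86404314-86569543 at Esrrb, chr3:34702228-34708185 at Sox2, chr4:55525557-55534320 at Klf4 and chr7:144413089-144417576 at Fgf4. Every CpG site listed in a window in any library was a member, with the strands of a CpG counted as separate sites. This gave 1117 sites in 81 tiles of 1 kb, of 316363 tiles with a site in the whole series. Of these tiles, 30 held at least 3 sites with 10 or more reads in all 16 libraries and entered a test fitted on 94337 such tiles of the genome, 22 at Esrrb, 5 at Sox2, 2 at Klf4 and 1 at Fgf4. The remaining 51 tiles are described separately.

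The assay was reduced representation bisulfite sequencing (RRBS), in which MspI fragments rich in CpG are treated with bisulfite, so that unmethylated cytosines are read as thymine. The 16 libraries form 8 groups of 2. The iPSC libraries came from induced pluripotent stem cells, named riPSCs in the labels, which grew on feeders with LIF, 3 µM CHIR99021 (a GSK3 inhibitor) and 0.2 µM PD0325901 (a MEK inhibitor). Cells at D2, D4, D6, D8, D10 and D12 had been in the reprogramming medium for that number of days. The D0 libraries were the starting mouse embryonic fibroblasts (MEFs), taken from E13.5 embryos of the cross 129XOG2. OG2 mice carry a fluorescent reporter driven by Oct4 regulatory DNA, and all groups descend from this cross. The labels state neither whether feeder cells were removed before DNA was extracted, nor the culture or day at which the iPSCs were derived, nor that the 2 libraries of a group were separate cultures. The edgeR p-values rest on the spread between the 2 libraries of a group, pooled over all 8 groups in the main test. This spread may be technical. A level in bulk DNA mixes all cells of a sample, so a loss in all cells and a loss in a fraction of them cannot be told apart.

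Esrrb, Sox2 and Klf4 encode transcription factors of the network that keeps mouse embryonic stem cells undifferentiated. Sox2 binds DNA together with Oct4, Klf4 is a zinc finger factor that acts downstream of LIF signalling, and Esrrb is an orphan nuclear receptor whose gene is derepressed when GSK3 is inhibited. Fgf4 encodes a secreted growth factor, is a classical target of Sox2 and Oct4 and signals through MEK and ERK. In mammals, CpG-dense promoters are mostly kept unmethylated even where the gene is silent, whereas CpG-poor promoters and gene bodies are often methylated.

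The starts of 3 of the genes were located from RefSeq promoter sequences (build GRCm38.p6), each of which matched the pattern of listed CpGs at exactly 1 position of its GRCm39 window. The Klf4 sequence matched none, so distances from its start are not given. The 250 bases before each start are shown because the levels around them are the ones compared below, and because they differ in CpG density. Capitals mark CpGs listed in at least 1 library. The sequence before the first Esrrb start (chr12:86407641-86407890, plus strand) holds 6 CpGs, that before the second (chr12:86468168-86468417, plus strand) 3, that of Sox2 (chr3:34703894-34704143, plus strand) 27 and that of Fgf4 (chr7:144414873-144415122, plus strand) 21.
Esrrb, first start: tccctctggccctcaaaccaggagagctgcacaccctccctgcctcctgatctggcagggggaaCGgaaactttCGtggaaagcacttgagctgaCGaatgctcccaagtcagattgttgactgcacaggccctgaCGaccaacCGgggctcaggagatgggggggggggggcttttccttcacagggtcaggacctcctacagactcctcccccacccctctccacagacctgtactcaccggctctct
Esrrb, second start: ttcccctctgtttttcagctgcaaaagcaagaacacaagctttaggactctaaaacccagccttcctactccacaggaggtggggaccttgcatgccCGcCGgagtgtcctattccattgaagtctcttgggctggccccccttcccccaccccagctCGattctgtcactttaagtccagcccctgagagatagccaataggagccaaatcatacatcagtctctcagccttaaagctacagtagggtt
Sox2: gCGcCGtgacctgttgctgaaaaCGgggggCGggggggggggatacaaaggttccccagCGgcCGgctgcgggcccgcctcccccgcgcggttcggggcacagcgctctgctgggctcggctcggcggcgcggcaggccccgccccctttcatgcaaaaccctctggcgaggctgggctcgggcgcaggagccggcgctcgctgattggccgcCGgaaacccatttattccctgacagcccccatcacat
Fgf4: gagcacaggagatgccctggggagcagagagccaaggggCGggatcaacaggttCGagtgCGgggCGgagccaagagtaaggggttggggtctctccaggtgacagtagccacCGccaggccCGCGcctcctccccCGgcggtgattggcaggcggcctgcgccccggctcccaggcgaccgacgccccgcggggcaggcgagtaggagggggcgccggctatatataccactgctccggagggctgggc

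The MspI site, CCGG, which reads the same on both strands, occurs 2 times before the first and 1 time before the second Esrrb start, 3 times before the Sox2 start and 4 times before the Fgf4 start. It is found in 52.8% of the 32851 promoter sequences of the table, counted over their 300 bases. Within these spans, extended by 50 bases past the start, 3 sites in all were listed in each of the 16 libraries, and these lie at the second Esrrb start. Over these 3 sites and 65 to 139 reads, the iPSC libraries stood at 20.0% and 21.98%, the D12 libraries at 22.8% and 17.9% and the D0 libraries at 9.35% and 24.6%, so the groups overlapped. The other start sites were listed in some of the libraries, and no iPSC library listed one at the first Esrrb start, the Sox2 start or the Fgf4 start. At the first Esrrb start the D12 libraries stood at 0% of 98 reads, summed over 5 sites, and at 40.9% of 132 reads. The 0% allows up to at least 3.06%. D0 replicate 1 stood at 50.7% of 75 reads, and the D12 replicates lay far apart. At the Sox2 start the D12 libraries stood at 35.3% of 17 reads and 17.6% of 74 reads and D0 replicate 1 at 25.6% of 121 reads, and the 12 libraries with a site ranged between 3.08% of 65 reads and 72.7% of 11 reads. At the Fgf4 start the D12 libraries stood at 24.1% of 166 reads and 46.8% of 139 reads, against 15.0% of 107 reads and 26.7% of 75 reads at D0. These levels rest on few reads and on sites that differ between libraries, and they were given no test. Reads here and below are summed over sites, so 1 read that covers several CpGs counts at each of them. A limit given for 0% is then too low.

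At Esrrb, methylation fell to its lowest level at D12, with the first tiles called lower at D6, and was higher again in iPSCs, by amounts that differed along the gene. Summed over the 181 sites shared by all libraries, the level was 53.4% ± 2.31 at D0 (SD, n = 2), 48.9% ± 1.54 at D2, 49.7% ± 0.724 at D4, and 40.05% ± 0.713 at D6. It was 23.5% ± 1.33 at D8, 15.3% ± 1.74 at D10 and 9.71% ± 1.54 at D12, and 43.4% ± 1.26 in iPSCs. The difference was -43.7 ± 1.96 points for D12 minus D0 (SE), -9.96 ± 1.86 points for iPSC minus D0 and 33.7 ± 1.41 points for iPSC minus D12, and the groups did not overlap in these 3 comparisons. The exact two-sided permutation p was 0.3333 for each, the smallest that 2 libraries against 2 allow.

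By tile, no member was called at D2 or D4, when 0.0488% and 0.0763% of all tiles were called lower and 0% and 0.00424% higher. A tile was called when edgeR's quasi-likelihood test gave a Benjamini-Hochberg adjusted p under 0.05 over all 94337 tiles and the difference of group means was 10 points or more. At an unadjusted p under 0.05 in edgeR, 1 of the 22 Esrrb tiles differed at D2 and 0 at D4, and the quasi-binomial model also called 0 at both days. At D6, 2 Esrrb tiles had fallen (21.3% of all tiles were called lower). The number was 14 for D8 (72.3%), 19 for D10 (81.6%) and 19 for D12 (82.7%). None of the 22 was called higher on any of these days, as were 0.104%, 0.544%, 0.201% and 0.649% of all tiles on those 4 days. The share of Esrrb tiles that fell was thus near that of the genome from D8 on, and the median difference at D12 was -40.3 points against -45.9 over all tiles.

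**Figure D1:**
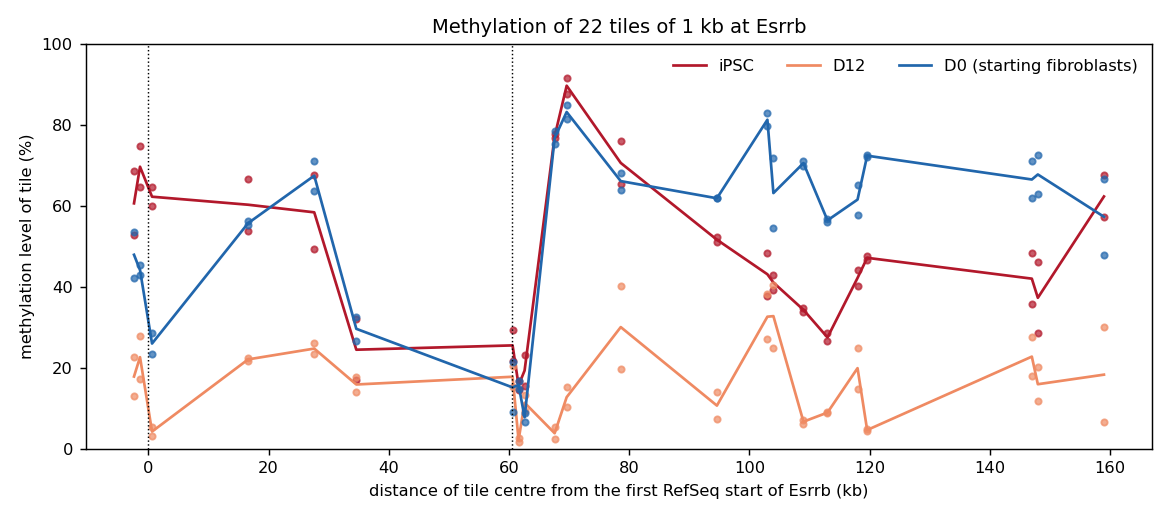
Methylation level (%) of the 22 tested Esrrb tiles against the distance of the tile's centre from the first RefSeq start (kb), for iPSC, D12 and D0. Points are libraries and lines join the group means across unmeasured gaps, and the dotted lines mark both starts. D12 lies lowest over most of the gene, and iPSC lies above D0 around the first start and below it between 103 and 148 kb.

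The first tiles called lower lay in the 3′ part of the gene, but other tiles narrowly missed a call at D6. The D6 difference was -16.7 points at 67.6 kb, -15.7 points at 94.6 kb and -20.2 points at 148 kb (edgeR adjusted p = 0.0519, 0.0556 and 0.0513). An order of loss along the gene is therefore not shown. At 113 kb past the first start, the Esrrb tile with the most shared sites (32, chr12:86520001-86521000) stood at 56.8% and 56.1% in the D0 libraries, at 40.4% and 31.7% at D6, at 22.1% and 25.7% at D8, at 16.5% and 13.7% at D10 and at 8.82% and 9.08% at D12. The tile at 119.6 kb, chr12:86527001-86528000 with 15 sites, stood at 72.6% and 72.2% at D0, 55.3% and 61.9% at D6, 27.2% and 21.2% at D8, 9.77% and 9.85% at D10 and 4.94% and 4.34% at D12. Over the shared sites of both tiles, the 2 libraries of D6 lay below those of D0 and each later day lay lower still. Sites listed in part of the libraries did not enter the test. At 119.6 kb these stood at 58.2% and 40.5% at D12, against 11.8% and 25.0% at D10. At 113 kb they stood at 36.7% and 5.11% at D12, against 13.0% and 16.1% at D10. Over the shared sites, the differences between D6 and D0 were -20.4 ± 4.37 points (SE, edgeR adjusted p = 0.0128) and -13.8 ± 3.32 points (adjusted p = 0.0194). Neither call held without D0 replicate 1 (-20.1 and -13.5 points, edgeR adjusted p = 0.0780 and 0.102) or without D0 replicate 2 (-20.8 and -14.0 points, edgeR adjusted p = 0.0750 and 0.0972). Without D6 replicate 2 the first tile was lost (-16.1 points, edgeR adjusted p = 0.0726) and without D6 replicate 1 the second (-10.5 points, edgeR adjusted p = 0.110).

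Of the other 20 tiles, 12 were first called lower at D8, 5 at D10 and 1 at D12, and 2 were not called on any day. The tile first called at D12, chr12:86566001-86567000 near the end of the gene at 159 kb, stood at 66.7% and 48.0% at D0, 51.5% and 49.7% at D8, 53.8% and 32.2% at D10 and 6.63% and 30.0% at D12. Its replicates lay further apart at D10 and D12 than those of the 2 tiles called lower first. The difference of D12 from D0 was -39.0 ± 15.0 points (SE, edgeR adjusted p = 0.00332).

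The 5 largest losses at D12 were spread between 67.6 and 148 kb. At 67.6 kb, the tile of 10 sites at chr12:86475001-86476000 had 2.35% and 5.34% methylation at D12, against 78.4% and 75.2% at D0. At 69.6 kb, the tile at chr12:86477001-86478000, with 3 sites and as few as 32 reads, had 15.2% and 10.3% at D12, against 84.8% and 81.5% at D0. Both groups were far apart in these tiles, by -72.9 ± 2.20 and -70.4 ± 2.92 points (SE, edgeR adjusted p = 1.54e-07 and 1.94e-05). Over its shared sites, the tile at 119.6 kb described above differed by -67.8 ± 0.385 points (SE, edgeR adjusted p = 4.42e-08). At 109 kb, the tile of 5 sites at chr12:86516001-86517000 had 6.24% and 7.16% at D12, against 69.9% and 71.2% at D0, a difference of -63.9 ± 0.786 points (SE, edgeR adjusted p = 6.33e-08). At 148 kb, the tile of 4 sites at chr12:86555001-86556000 had 11.8% and 20.1% at D12, against 72.6% and 62.9% at D0 (-51.8 ± 6.38 points, SE, edgeR adjusted p = 9.57e-06).

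**Figure D2:**
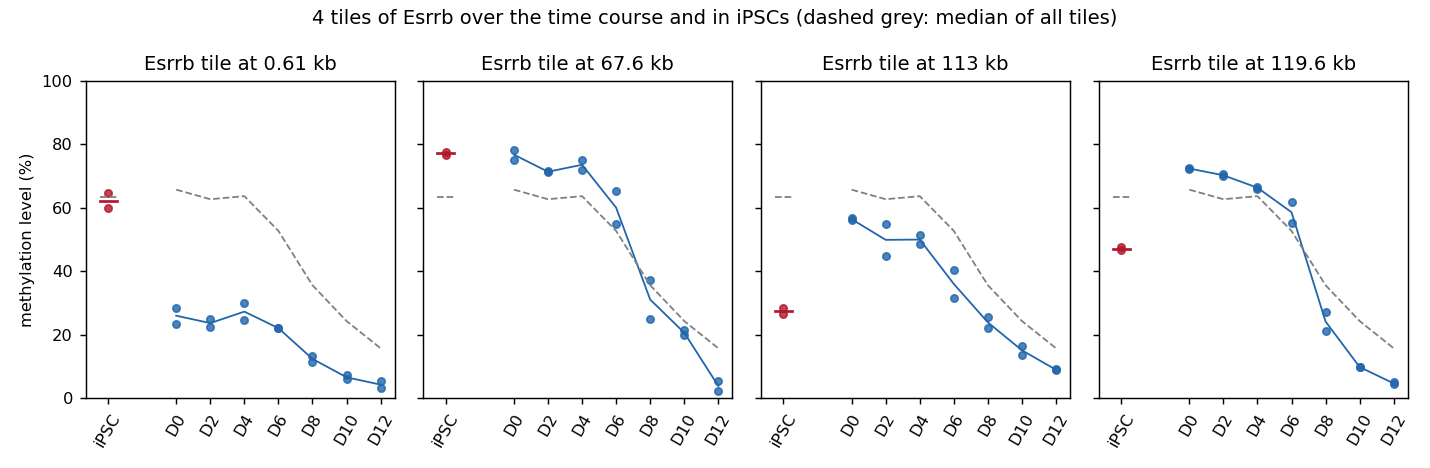
Methylation level (%) of the 4 Esrrb tiles with at least 10 sites, in iPSC and from D0 to D12, named by the distance of their centre from the first start. Points are libraries, solid lines and bars are group means, and the dashed grey line and bar are the median of all 94337 tiles. The tile at 0.61 kb started below that median and ended above its D0 level in iPSC, whereas the tiles at 113 and 119.6 kb ended below theirs.

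The tiles not called lower at D12 in the main test lay near the second start and at 34.6 kb, and started low. The tile that holds the second start, chr12:86468001-86469000, ranged between 9.005% and 42.5% over the 16 libraries, with 20.4% and 15.2% at D12 and 9.005% and 21.3% at D0. The tile at chr12:86470001-86471000 had 13.4% and 9.35% at D12, against 8.89% and 6.67% at D0. Differences of D12 from D0 were 2.63 ± 6.70 and 3.596 ± 2.31 points (SE, edgeR adjusted p = 0.702 and 0.690). Between them, the deeply covered tile at chr12:86469001-86470000 (844 to 3034 reads per library) had 1.68% and 2.67% at D12, against 16.7% and 14.9% at D0. Over its 7 shared sites it fell by 13.6 ± 1.02 points (SE, edgeR adjusted p = 5.43e-07). Its 13 other sites did not enter the test and showed no such loss. They stood at 36.6% of 142 reads in D12 replicate 2, against 14.9% of 181 reads and 29.4% of 170 reads at D0. The tile at chr12:86470001-86471000 had a mean of 7.78% at D0, so it could not be called 10 points lower. At 34.6 kb, the tile at chr12:86442001-86443000 had 14.0% and 17.7% at D12, against 32.5% and 26.7% at D0 (-13.8 ± 3.44 points, SE, edgeR adjusted p = 0.223). With sites common to D12 and D0, and with only these groups fitted, it was called lower at D12 (edgeR adjusted p = 0.0308 and 0.0282). In the main test it was called lower at D10 alone (-20.6 ± 3.05 points, SE, edgeR adjusted p = 0.0480). Without any one of the 4 libraries of D10 and D0 that call was lost (-23.5 to -17.7 points).

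In iPSCs, most Esrrb tiles stood well above D12. Of the 22, 17 were higher than at D12 and none was lower (79.8% of all tiles were called higher and 1.48% lower), with a median difference of 30.6 points against 43.7 over all tiles. The largest gain was in the tile at 69.6 kb, which had 91.7% and 87.7% in iPSCs, against 15.2% and 10.3% at D12 (76.9 ± 3.11 points, SE, edgeR adjusted p = 1.65e-05). Its neighbour at 67.6 kb had 76.7% and 77.6% in iPSCs, against 2.35% and 5.34% at D12 (73.3 ± 1.57 points, SE, edgeR adjusted p = 1.98e-07). In the first of these tiles the iPSC libraries lay above both D0 libraries, and in the second between them. Near the end of the gene, at 159 kb, the level was 67.5% and 57.1% in iPSCs, against 6.63% and 30.0% at D12 (44.0 ± 12.8 points, SE, edgeR adjusted p = 0.00199).

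Against the starting fibroblasts, the iPSCs differed at 8 of the 22 Esrrb tiles, 2 higher and 6 lower (4.02% of all tiles were called higher and 9.42% lower). The median difference was -2.63 points at Esrrb and -1.76 points over all tiles. The count was 5, 1 higher and 4 lower, without D0 replicate 1. Both gains lay around the first start, and all 6 losses lay between 103 and 148 kb past it. The boundaries of these stretches were read from the values and were given no test.

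The stronger gain was in the tile just past the first start, chr12:86408001-86409000, which holds 12 sites and 415 to 1385 reads per library. It stood at 59.97% and 64.6% in iPSCs, at 5.40% and 3.11% at D12 and at 28.5% and 23.5% at D0. The iPSC libraries were the highest of the 16 and the D12 libraries the lowest. From D2 to D10 the libraries lay at 24.8% and 22.5%, 30.0% and 24.5%, 22.1% and 22.04%, 13.3% and 11.5%, and 7.22% and 5.92%, in the order of days. The gain over D0 was 36.3 ± 3.42 points (SE, edgeR adjusted p = 0.000446), and the gain over D12 was 58.0 ± 2.57 points (adjusted p = 1.38e-07). Of its 12 sites, 11 had a higher mean in iPSCs than at D0, and the median site stood at 72.6% in iPSCs, 5.29% at D12 and 25.8% at D0.

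The tile upstream of the start, chr12:86406001-86407000, with 4 sites and 87 to 222 reads, had 64.6% and 74.8% in iPSCs, 27.9% and 17.3% at D12 and 45.4% and 42.9% at D0. It gained 25.5 ± 5.25 points over D0 (SE, edgeR adjusted p = 0.00963) and 47.0 ± 7.36 points over D12 (adjusted p = 8.1e-06). The gain over D0 lost its call when iPSC replicate 2 was left out (20.4 points, edgeR adjusted p = 0.0978), and likewise without D0 replicate 1 (26.7 points, edgeR adjusted p = 0.0516) or without D0 replicate 2 (24.3 points, edgeR adjusted p = 0.0706). The next tile upstream, chr12:86405001-86406000, had 52.7% and 68.5% in iPSCs, 22.8% and 12.9% at D12 and 42.3% and 53.6% at D0, where iPSC and D0 overlapped (12.7 ± 9.73 points, SE, edgeR adjusted p = 0.511). It differed from D12 by 42.8 ± 9.30 points (SE, edgeR adjusted p = 0.000771).

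**Figure D3:**
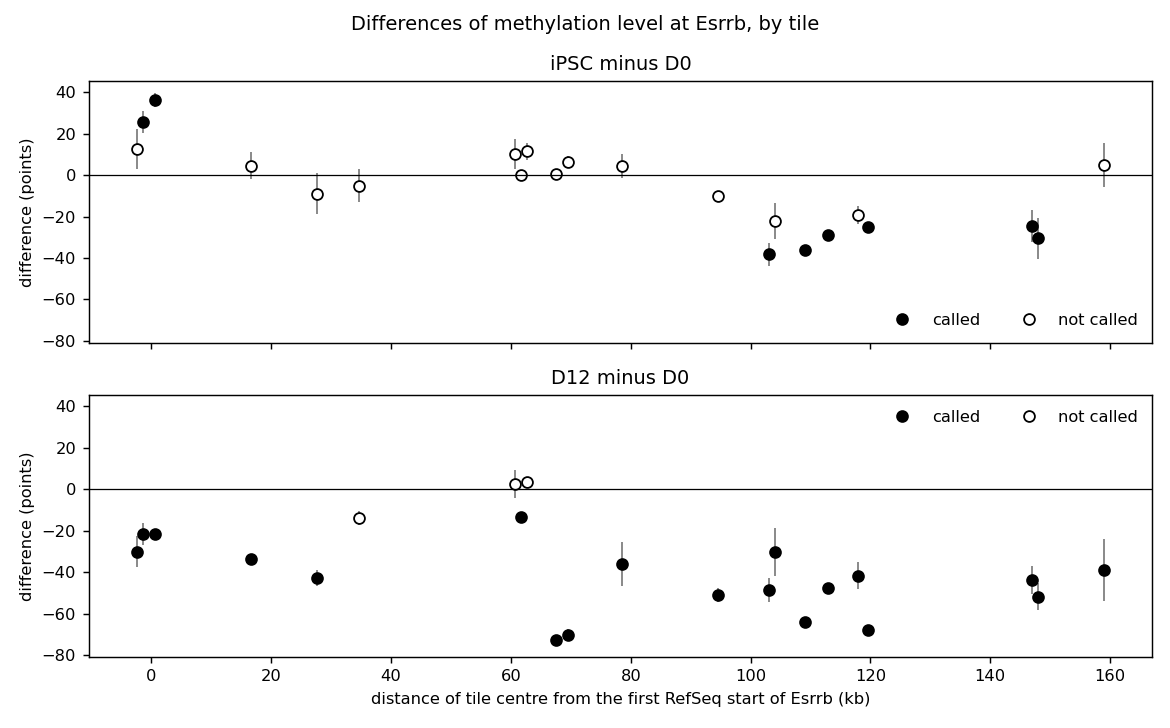
Difference of group means (percentage points) for iPSC minus D0 and D12 minus D0 at the 22 Esrrb tiles, against distance of the tile's centre from the first start (kb). Bars are standard errors from 2 libraries per group, and filled points passed both thresholds. For iPSC minus D0 the filled points lie above 0 around the start and below 0 between 103 and 148 kb, whereas for D12 minus D0 all 19 filled points lie below 0.

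Along the 10 tiles between 16.6 and 94.6 kb, none was called between iPSC and D0, and differences ranged between -10.2 and 11.6 points. Of these 10, 7 had fallen at D12 and 7 were higher in iPSCs than at D12. The 8 tiles between 103 and 148 kb had all fallen at D12, and the iPSC mean was below the D0 mean in each of the 8, with differences from -38.2 to -19.4 points, 6 of them called. At 103 kb, the tile of 4 sites at chr12:86510001-86511000 had 37.7% and 48.5% in iPSCs, 27.1% and 38.2% at D12 and 82.8% and 79.7% at D0. Its iPSC libraries overlapped those of D12 and lay far below those of D0 (-38.2 ± 5.597 points, SE, edgeR adjusted p = 0.0014). The difference from D12 was 10.5 ± 7.71 points (SE, edgeR adjusted p = 0.140), an estimate too imprecise to place the iPSCs at the D12 level.

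At the next 3 losses the iPSC level was intermediate. At 109 kb the level was 33.9% and 34.8% in iPSCs, against 69.9% and 71.2% at D0, a difference of -36.2 ± 0.775 points (SE, edgeR adjusted p = 0.000169). At 113 kb it was 26.5% and 28.5% in iPSCs, against 56.8% and 56.1% at D0, a difference of -28.9 ± 1.06 points (SE, edgeR adjusted p = 0.000909), and 31 of the 32 sites had a lower mean in iPSCs. At 119.6 kb it was 46.6% and 47.7% in iPSCs, against 72.6% and 72.2% at D0, a difference of -25.2 ± 0.592 points (SE, edgeR adjusted p = 0.000681). Over the shared sites of these 3 tiles, the iPSC libraries lay above all D12 and below all D0 libraries. The gains over D12 were 27.6, 18.6 and 42.5 points (edgeR adjusted p = 1.37e-06, 2.94e-05 and 1.07e-07). At the sites outside the test, the gain was seen at 109 kb alone (44.4% and 30.0% in iPSCs, 9.94% and 8.05% at D12). At 113 kb they stood at 20.4% in iPSC replicate 2 and 36.7% and 5.11% at D12. At 119.6 kb they stood at 10.0% of 10 reads and 46.5% of 101 reads in iPSCs, against 58.2% and 40.5% at D12.

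The losses at 147 and 148 kb were less stable. At 148 kb the level was 28.6% and 46.0% in iPSCs, against 72.6% and 62.9% at D0, a difference of -30.5 ± 9.98 points (SE, edgeR adjusted p = 0.0118). Without iPSC replicate 1 it was -21.7 points and without D0 replicate 1 it was -25.6 points (edgeR adjusted p = 0.109 for both). The neighbouring tile at 147 kb, chr12:86554001-86555000, differed by -24.5 ± 7.80 points (SE, edgeR adjusted p = 0.0226) and lost the call without iPSC replicate 2 (-18.2 points, edgeR adjusted p = 0.198) and without D0 replicate 1 (-19.8 points, edgeR adjusted p = 0.189).

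**Figure D4:**
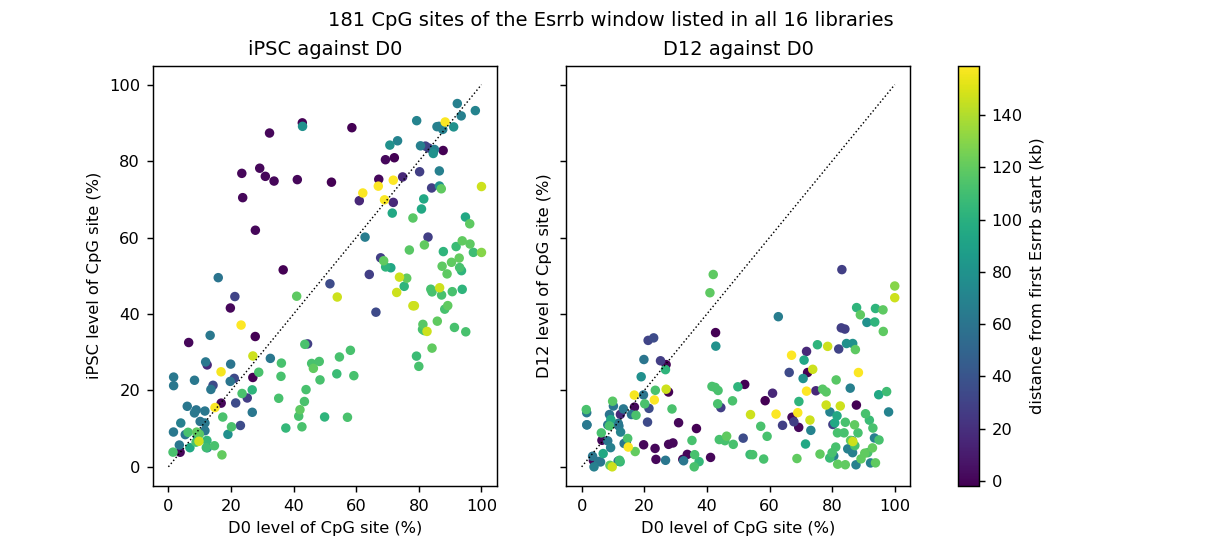
Level (%) of each of the 181 Esrrb sites shared by all libraries in iPSC (left) and D12 (right) against its level at D0, as means of 2 libraries. Colour gives the distance from the first start (kb), and the dotted line marks equal levels. In iPSC, sites near the first start mostly lie above the line and sites past 100 kb mostly lie below it, and most sites that were high at D0 lie far below it at D12.

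The Sox2 window was low over the sites shared by all libraries, and higher at sites near its start that only some libraries listed. Over the 65 shared sites the level was 3.70% ± 0.155 at D0 (SD, n = 2), 1.96% ± 0.188 at D2, 7.25% ± 1.44 at D4, and 5.57% ± 0.967 at D6. It was 5.73% ± 1.81 at D8, 7.53% ± 0.0544 at D10 and 6.61% ± 1.28 at D12, and 2.87% ± 1.02 in iPSCs. Tiles elsewhere that were under 15% in every library averaged between 3.34% ± 0.0301 at D2 and 5.06% ± 0.0174 at D4 (SD, n = 2), a background that holds incomplete conversion as well as true methylation. The summed Sox2 level was of the order of that background in most groups, but single tiles stood above it, up to 37.3% in D8 replicate 1. No Sox2 tile was called in any of the 8 comparisons, whereas 82.7% of all tiles were called lower at D12 than at D0. The D0 means of the 5 Sox2 tiles lay between 1.37% and 9.87%, so none could be called 10 points lower than D0. The absence of such calls therefore does not show that Sox2 kept its methylation. At an unadjusted p under 0.05 in edgeR, 1 of the 5 tiles differed at D4 and 1 at D10, and none in the other 6 comparisons.

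The Sox2 tile that holds the start, chr3:34704001-34705000, has 31 sites and 619 to 2269 reads per library. It stood at 0.809% and 3.42% at D0, at 11.2% and 9.0% at D10 and at 5.08% and 9.35% at D12, and at 4.04% and 2.27% in iPSCs. The D10 and D12 libraries all lay above those of D0, and 29 of the 31 sites had a higher mean at D12. The difference of D10 from D0 was 7.99 ± 1.71 points (SE, edgeR adjusted p = 0.0268), under the minimum of 10 points, and with sites of at least 20 reads it was 10.6 points and called (edgeR adjusted p = 0.0350). At D12 it was 5.10 ± 2.50 points (SE, edgeR adjusted p = 0.0751). The 43 other sites of this tile, at and past the start, were listed in part of the libraries and did not enter the test. They stood at 2.86% of 35 reads in iPSC replicate 2 and at 37.5% of 328 reads and 44.4% of 232 reads at D12. At D0 they stood at 26.7% of 632 reads and 0% of 39 reads, which allows up to at least 7.69%. In iPSC replicate 2 and in D0 replicate 2, 3 sites made up the value. Over D2 to D10 they ranged between 2.44% and 39.8%. The low level of this tile thus holds for its shared sites, and the sites that were left out were mostly higher. The next tile, chr3:34705001-34706000, with 15 sites, lay at or below 7.02% in all libraries over these sites. A level of 0% allows up to at least 1.01% at its smallest depth.

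Upstream, the tile at chr3:34702001-34703000 had 4.83% and 5.92% in iPSCs, 7.62% and 3.36% at D12 and 10.5% and 9.21% at D0. Downstream of the gene's start, the adjacent tiles that begin at chr3:34707001 and chr3:34708001 had 6.90% and 2.33%, and 4.13% and 1.34%, in iPSCs. They had 15.6% and 11.98%, and 14.5% and 9.95%, at D12, and 7.66% and 4.00%, and 6.54% and 3.31%, at D0. In both tiles the D12 libraries lay above those of iPSC and D0 without a call (7.95 ± 2.56 and 7.29 ± 2.78 points over D0, SE, edgeR adjusted p = 0.314 and 0.335). Their D8 replicates stood far apart, at 37.3% and 1.16%, and at 26.9% and 0.658%.

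In the test of all libraries, Klf4 was measured by 2 tiles, and its main tile was lower in iPSCs than at D12. The tile at chr4:55532001-55533000, with 24 sites and 621 to 2064 reads per library, stood at 8.87% and 15.9% at D0, 6.78% and 14.1% at D2, 18.3% and 13.7% at D4, 14.3% and 11.3% at D6, 37.9% and 15.0% at D8, 10.1% and 14.4% at D10 and 24.5% and 13.4% at D12. In iPSCs it stood at 4.84% and 2.41%, the lowest 2 of the 16 libraries. Levels from D0 to D12 overlapped, with D8 replicate 1 above the rest. The difference of iPSC from D12 was -15.4 ± 5.66 points (SE, edgeR adjusted p = 0.00326), and all 24 sites had a lower mean in iPSCs than at D12. Without D12 replicate 1 the difference was -9.82 points, just under the minimum. Against D0 it was -8.74 ± 3.71 points (SE, edgeR adjusted p = 0.0920).

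The other Klf4 tile, chr4:55530001-55531000, has 3 shared sites and 37 to 151 reads. It had 17.5% and 5.88% in iPSCs, 0% and 29.8% at D12 and 9.28% and 21.6% at D0, where 0% allows up to at least 8.11% at the smallest depth. Replicates of 1 group differed by as much as 29.8 points, and the tile was not called in any comparison. No Klf4 tile was called at any day of the time course, and at an unadjusted p under 0.05 in edgeR there were also 0 from D2 to D12.

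**Figure D5:**
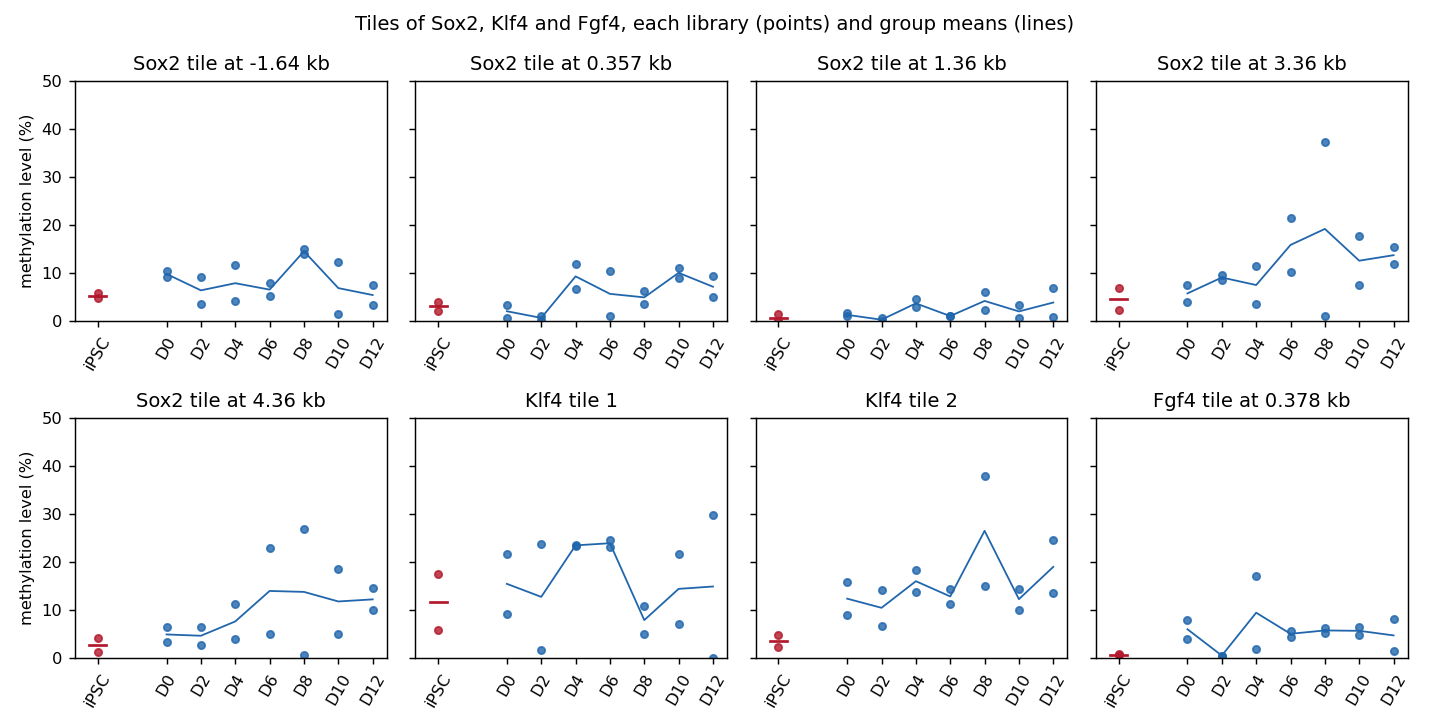
Methylation level (%) of the 5 Sox2, 2 Klf4 and 1 Fgf4 tiles, over sites shared by all libraries, in iPSC and from D0 to D12. Points are libraries, lines and bars are group means, and the vertical axis ends at 50%. Sox2 and Fgf4 stay mostly under 20%, D8 replicate 1 stands above replicate 2 in 2 Sox2 tiles and in Klf4 tile 2, which begins at 55532001, and Klf4 tile 1 begins at 55530001.

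In the test of all libraries, Fgf4 was read through 1 tile just past its start, which was low in all groups. The tile at chr7:144415001-144416000 holds all 42 shared sites of the window and 820 to 2746 reads per library. It stood at 4.07% and 7.94% at D0, 0.540% and 0.515% at D2, 1.82% and 17.1% at D4, 4.44% and 5.68% at D6, 6.24% and 5.27% at D8, 6.55% and 4.81% at D10 and 8.07% and 1.38% at D12. In iPSCs it stood at 0.773% and 0.610%, below both D12 and both D0 libraries and close to D2. The differences were -5.31 ± 1.94 points from D0 and -4.03 ± 3.35 points from D12 (SE, edgeR adjusted p = 0.101 and 0.0668), and no comparison was called. Over the 42 sites the mean was 6.00% at D0 and 4.72% at D12, so a call 10 points lower than either was not possible. With sites of at least 20 reads, of which 3 remained, the difference of iPSC from D12 was -13.1 points and called (edgeR adjusted p = 0.0415). The sign of the D12 difference from D0, -1.28 ± 3.87 points (SE), was not stable, since it was 2.07 points without D12 replicate 2 and 0.657 points without D0 replicate 2.

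The 51 tiles outside the fit had too few shared sites, and those with at least 3 sites in both groups of a comparison were tested on those 4 libraries alone, with the adjustment over all tiles of that fit. At D12 against D0, 6 of 11 such Esrrb tiles were called lower and none higher, with differences from -62.9 to -11.7 points (78.5% of all tiles in that fit were called lower and 1.24% higher). For iPSC against D0, 1 of 4 Esrrb tiles was called lower (9.61% lower and 5.14% higher of all tiles), and for iPSC against D12, 2 of 6 were called higher (76.8% higher and 1.68% lower). The iPSC loss was in the tile at chr12:86537001-86538000, between the stretches of losses above, which had 33.6% and 39.9% in iPSCs, against 90.4% and 86.6% at D0 over 8 sites (-51.8 points, edgeR adjusted p = 0.00631).

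The tiles named in this paragraph were chosen after their values were seen. At Fgf4, the tile before the start, chr7:144414001-144415000, which covers the first part of the sequence shown above, had 37.0% and 42.6% at D12, against 16.2% and 24.2% at D0 over 10 sites (19.6 points, edgeR adjusted p = 0.0301). The D12 libraries lay above both D0 libraries, and no iPSC library gave a value there. At chr7:144417001-144418000, downstream of the start, the level was 5.88% and 14.3% at D12, against 32.6% and 33.6% at D0 (-23.0 points, edgeR adjusted p = 0.0174). At Klf4, the tile at chr4:55533001-55534000 had 6.96% and 7.24% in iPSCs, against 41.2% and 47.0% at D12 (-37.0 points, edgeR adjusted p = 0.00136). Its D0 libraries stood at 9.52% and 50.0% over the sites shared with D12, so D12 could not be told from D0 there (14.0 points, edgeR adjusted p = 0.378). The Klf4 tile at chr4:55529001-55530000 had 1.85% and 4.11% at D12, against 24.6% and 21.1% at D0 over 3 sites (-19.8 points, edgeR adjusted p = 0.00578).

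For comparison, a list of 24 other genes of the pluripotency network was searched for start tiles. Promoter sequences were in the table for 14 of them, 4 could be placed, and 3 start tiles were in the fit, of which 2 were lower both at D12 and in iPSCs than at D0. Of all tiles, 82.7% were called lower at D12 and 9.42% lower in iPSCs, each against D0. The share of all tiles lower in both was not counted. The tile at the start of Zfp42, the gene of the stem cell marker Rex1 (chr8:43760001-43761000, 22 sites), stood at 19.1% ± 1.23 in iPSCs, 14.0% ± 5.32 at D12 and 65.2% ± 1.98 at D0 (SD, n = 2). It differed from D0 by -46.1 points in iPSCs and by -51.3 points at D12 (edgeR adjusted p = 9.91e-05 and 8.99e-07). The tile at the second RefSeq start of Pou5f1, which encodes Oct4 (chr17:35819001-35820000, 4 sites), stood at 23.3% ± 0.812 in iPSCs, 26.3% ± 2.26 at D12 and 45.1% ± 0.512 at D0 (edgeR adjusted p = 0.0021 for iPSC and 0.000551 for D12, each against D0). The start tile of Tdgf1, which encodes the Nodal co-receptor Cripto, differed by -7.70 points in iPSCs and -10.3 points at D12 from 22.4% at D0 (edgeR adjusted p = 0.627 and 0.153). With strands merged it was called lower in both, by -23.0 points in iPSCs and -16.6 points at D12 (edgeR adjusted p = 0.0219 and 0.0312). With the sites common to D12 and D0 it was called lower at D12 (-15.4 points, edgeR adjusted p = 0.00779).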

How the data were processed

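DNA methylation was measured by RRBS in 16 mouse libraries. The submitters' processing notes name the build GRCm39 and, as tools, methylKit, Bowtie2, Bismark 0.23.0 and fastp 0.20.1. For the trimming of filled-in ends and for duplicates, settings were not given in the sources used here. The authors' deposited tables list, per CpG site and strand, coverage as a count of reads (at least 10) and the percent methylated. Summed coverage lay between 39011213 and 107834007 reads per library. No molecular identifiers are mentioned in the labels, so limits for levels of 0 (3 reads of the total) cover counting error only.

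Reads were summed over 873038 sites (27.5% of those listed) covered in all libraries, per 1-kb tile with at least 3 such sites. Tiles are given from 1. All 16 libraries were fitted with edgeR 4.0.16 (quasi-likelihood, R 4.3.3), which took methylated against unmethylated counts with a library effect, a coefficient per group and a common dispersion (8 residual degrees of freedom). Before use, the fitting step was checked on simulated counts with known differences. Starts were located by matching the listed CpGs to RefSeq promoter sequences (at least 4 CpGs, 1 matching offset). No GRCm39 annotation was used here, so exons, introns and untranslated regions are not stated. For Esrrb, values per library follow the 5 largest differences in each of 3 comparisons. The genes, windows and lists were chosen with earlier results of these data known. Alternatives changed the coverage minimum, strands, sites, libraries, test, thresholds and replicates.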

Additional observations from a re-analysis of the deposited data

Results flagged for a closer look

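A signal in data outside the test of all libraries appeared just before the Fgf4 start. The tile at chr7:144414001-144415000 was 19.6 points higher at D12 than at D0, with D12 libraries at 37.0% and 42.6% and D0 libraries at 16.2% and 24.2%, over 10 sites with 119 to 202 reads per library (edgeR with D12 and D0 alone, Benjamini-Hochberg adjusted p = 0.0301). Among the tiles outside that test with at least 3 sites in both groups compared, it was the only one in which both D12 or both iPSC libraries exceeded both D0 libraries. The neighbouring tile past the start, with 42 sites, did not differ detectably (8.07% and 1.38% at D12, 4.07% and 7.94% at D0). In that fit 1.24% of all tiles were called higher.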

How the results depend on the processing

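The counts of member tiles called are those over the 30 tiles of the 4 windows, at edgeR with Benjamini-Hochberg adjustment unless another test is named. With at least 20 reads per site, 14 tiles remained and the counts were 5 at D6, 8 at D8, 10 at D10 (9 lower, 1 higher), 9 at D12, 5 for iPSC against D0 (4 lower, 1 higher) and 11 for iPSC against D12 (2 lower, 9 higher), against 2, 14, 19, 19, 8 and 18 in the main test. Fewer tiles were tested there by construction. The D6 count of 2 was 0 with sites common to D6 and D0, 1 with only these groups fitted, 6 by the quasi-binomial model and 0 when 25 points were required, and the cause was not tested. With 1 library left out it was 0 to 1 at D6, 12 to 17 at D8, 16 to 18 at D10, 18 to 19 at D12, 5 to 7 for iPSC against D0 and 16 to 18 for iPSC against D12. At D2 and D4 the count was 0 under all alternatives run, by edgeR and by the quasi-binomial model, while edgeR gave 2 and 1 tiles an unadjusted p under 0.05. With a replicate block the counts were 0, 0, 3, 14, 18, 19, 8 and 18 in the order of the comparisons from D2 to D12, iPSC against D0 and iPSC against D12. Deviations of equal replicate numbers were uncorrelated between groups (r from -0.0144 to 0.00778). No pairing by number was seen, but this check cannot exclude one, since noise of the counts could hide it. Under the block the D10 call at chr12:86442001-86443000 was lost (-20.6 points, adjusted p = 0.0598) and a D6 call at chr12:86502001-86503000 was gained (-15.7 points, adjusted p = 0.0431).

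The Fgf4 window was the only one whose sign turned. Its D12 minus D0 difference of -1.28 points was 7.55 with at least 20 reads per site, 0.833 with strands merged and 0.895 over all sites each library lists, and -4.62 to 2.07 with 1 library left out. The cause was not tested. The differences of the Esrrb, Sox2 and Klf4 windows kept their sign under all alternatives run.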

Other observations

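Within methylated Esrrb tiles, single sites, with each strand of a CpG counted apart, were low in iPSCs, at D12 and at D0. In 9 of the 15 member tiles whose median site was over 50% at D0, 11 sites lay under 20% at D0. These had medians of 8.50% in iPSCs, 5.02% at D12 and 9.76% at D0, against 57.6%, 17.1% and 79.3% for the other 79 sites. The low sites were picked by their D0 level, so that value describes the choice. The highest of them stood at 26.7% in iPSCs and at 23.6% at D12. The site at 26.7% in iPSCs stood at 12.4% at D0. The opposite strand of the same CpG stood at 69.2% in iPSCs and at 71.8% at D0. A low site is thus not always a low CpG, and the strands of the other low sites were not compared. Their levels at D2 to D10 are not summarised here.

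In D8 replicate 1 several tiles of low level stood above replicate 2. The values were 37.3% against 1.16% and 26.9% against 0.658% in the last 2 Sox2 tiles, 37.9% against 15.0% in the Klf4 tile at chr4:55532001-55533000 and 42.5% against 9.90% in the tile of the second Esrrb start. These tiles were chosen for this gap after their values were seen, and no test is given.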
